A study of Mus musculus with 12 samples.

Results

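The ISG15 conjugation machinery was followed here through the transcripts of 5 genes, taken by symbol from a table of 23472 genes: the modifier Isg15, the activating enzyme Uba7, the conjugating enzyme Ube2l6, the ligase Herc6 and the deconjugase Usp18. All 5 were found, and all 5 were among the 13184 genes that passed the filter on low counts. The RNA came from LT-HSCs of C57BL/6 mice, the long-term stem cells of the bone marrow that maintain blood formation. Cre-negative mice gave 6 wt libraries and cre-positive mice 6 libraries whose titles read Jak1 KO, called KO-labelled below. Mice of both groups had received poly(I:C), synthetic RNA that provokes interferon and serves to switch on the deletion, in 4 doses given 4 to 6 weeks before the marrow was taken, so neither group is an untreated one. Since cre was present in one genotype alone, its effects and those of a Jak1 deletion cannot be told apart, and the labels spell out neither the promoter of the cre nor the exons it removes. Within each genotype 3 libraries were named in a VD series (numbers 1 to 3) and 3 in a ZL series (numbers 4 to 6), which are called name sets below.

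ISG15 is a small ubiquitin-like protein with a pair of ubiquitin-like domains that is attached to lysines of other proteins, a modification called ISGylation. As with ubiquitin, an E1 enzyme activates the modifier, an E2 carries it and an E3 ligase places it on the target, while a protease takes it off again. In mice these steps fall mainly to UBA7, UBE2L6, HERC6 and USP18. Genes of the pathway are classical targets of type I interferon, whose receptor signals through JAK1 and TYK2 to the transcription factor ISGF3. USP18 has a further role, since it binds the receptor chain IFNAR2 and restrains JAK1 signalling there, and mice lacking it are hypersensitive to interferon.

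Total counts ran from 8989965 to 28701855 per library. Counts of Jak1 itself did not separate the groups: in CPM, read counts scaled to the normalised library size, it stood at 321 to 435 in wt (median 361) and 246 to 727 in the KO-labelled libraries (median 389). Exons outside a conditional deletion are still counted, so this value does not check the labels. The stem cell markers Kit, Hlf, Mecom and Procr were counted in every library, the lowest value being 47.6 CPM for Procr. Nothing in the labels ties the libraries of a group to separate animals, and the p-values therefore measure the spread between these samples, part of which may be technical. The library titled Jak1 KO 4 stood apart. Compared with the other libraries of its set, longer genes were lower in it (Spearman -0.521 of the log2 CPM deviation with exon length across 12392 genes, against -0.268 to 0.451 in the other 11 libraries), and its limma-voom quality weight was the lowest, 0.165. Marker lists of monocytes and macrophages, of B cells and of T and NK cells also summed highest there, at 975.7, 143.2 and 194.2 CPM, against at most 515.6, 68.6 and 89.4 in any other library. These sums rested on Lyz2 (951 CPM), Cd79b (141 CPM) and Nkg7 (186 CPM), while Cd3d was at 0 and Cd3e and Cd3g at 0.0755 CPM each. Of the stem cell markers above, Kit and Mecom were lowest in Jak1 KO 4 (197 and 58.2 CPM, against at least 514 and 134 elsewhere). Procr was highest there (272 CPM, against at most 121), and Hlf (203 CPM) lay within the range of the other libraries. Results that rest on this library are given with and without it.

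The start-site regions of 4 of the 5 genes, all but Usp18, were matched by symbol to RefSeq sequences (GRCm38.p6) and searched over the 250 bases upstream. They are shown because interferon acts on such genes through short elements near the start. The letters searched on both strands were GAAA, any 2 bases and GAAA again, the core of the interferon-stimulated response element (ISRE) that ISGF3 binds, and AANNGAAA, the shorter recognition sequence of interferon regulatory factors, which overlaps it. Capitals mark a match to either.

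Isg15, chr4:156200819-156201068, minus strand: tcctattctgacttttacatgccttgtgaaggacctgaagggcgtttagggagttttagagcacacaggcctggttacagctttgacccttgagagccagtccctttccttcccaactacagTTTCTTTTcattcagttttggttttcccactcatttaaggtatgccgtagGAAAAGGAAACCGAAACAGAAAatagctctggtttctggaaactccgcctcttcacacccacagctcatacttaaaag

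Uba7, chr9:107975529-107975558, plus strand, the 30 bases that hold its match: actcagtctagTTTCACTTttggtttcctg

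Ube2l6, chr2:84798578-84798827, plus strand: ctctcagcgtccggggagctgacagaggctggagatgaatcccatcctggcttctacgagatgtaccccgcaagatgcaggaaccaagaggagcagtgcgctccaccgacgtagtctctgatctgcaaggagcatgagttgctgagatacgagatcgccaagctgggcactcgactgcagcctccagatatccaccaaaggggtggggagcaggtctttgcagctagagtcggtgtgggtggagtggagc

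Herc6, chr6:57580742-57580991, plus strand: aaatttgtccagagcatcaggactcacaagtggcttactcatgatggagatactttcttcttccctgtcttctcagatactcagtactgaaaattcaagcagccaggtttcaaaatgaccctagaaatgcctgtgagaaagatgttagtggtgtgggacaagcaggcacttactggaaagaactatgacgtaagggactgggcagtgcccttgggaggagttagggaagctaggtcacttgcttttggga

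The Isg15 window held 3 overlapping matches to the ISRE core between 78 and 57 bases before the start, and a separate short match at 128 to 121 bases. The Uba7 window held 1 short match, 27 to 20 bases before the RefSeq start at 107975567, and no full ISRE core. GENCODE places the start of Uba7 further upstream, at 107975505, so this match lies inside the gene as annotated there. Neither set of letters occurred in the Ube2l6 and Herc6 windows. Of all 32851 upstream windows in the table, 2.98% held the ISRE core and 21.3% the shorter sequence. TTCNNNGAA, the GAS element bound by STAT dimers, occurred in none of the 4 windows and in 7.02% of all windows. A match is a description of letters and no evidence of binding.

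Transcripts of all 5 genes had lower fitted levels in the KO-labelled libraries than in wt, by 1.40-fold to 2.5-fold. Isg15 and Usp18, the modifier and the protease that removes it, had the largest differences, at 40.0% and 42.7% of the wt level. The 3 conjugating enzymes stood at 63.5% (Ube2l6), 69.1% (Uba7) and 71.3% (Herc6) of wt. Usp18 alone fell past the threshold when p-values were adjusted over all 13184 genes, so 1 of 5 genes was called, against 0.432% of all genes called lower. All 5 had an unadjusted p under 0.05 in the lower direction, against 2.66% of all genes. The median log2 fold change of the 5 was -0.66, beside -0.0060 over all genes tested. In these bulk samples fewer cells that express a gene and less RNA per cell cannot be told apart.

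**Figure D1:**
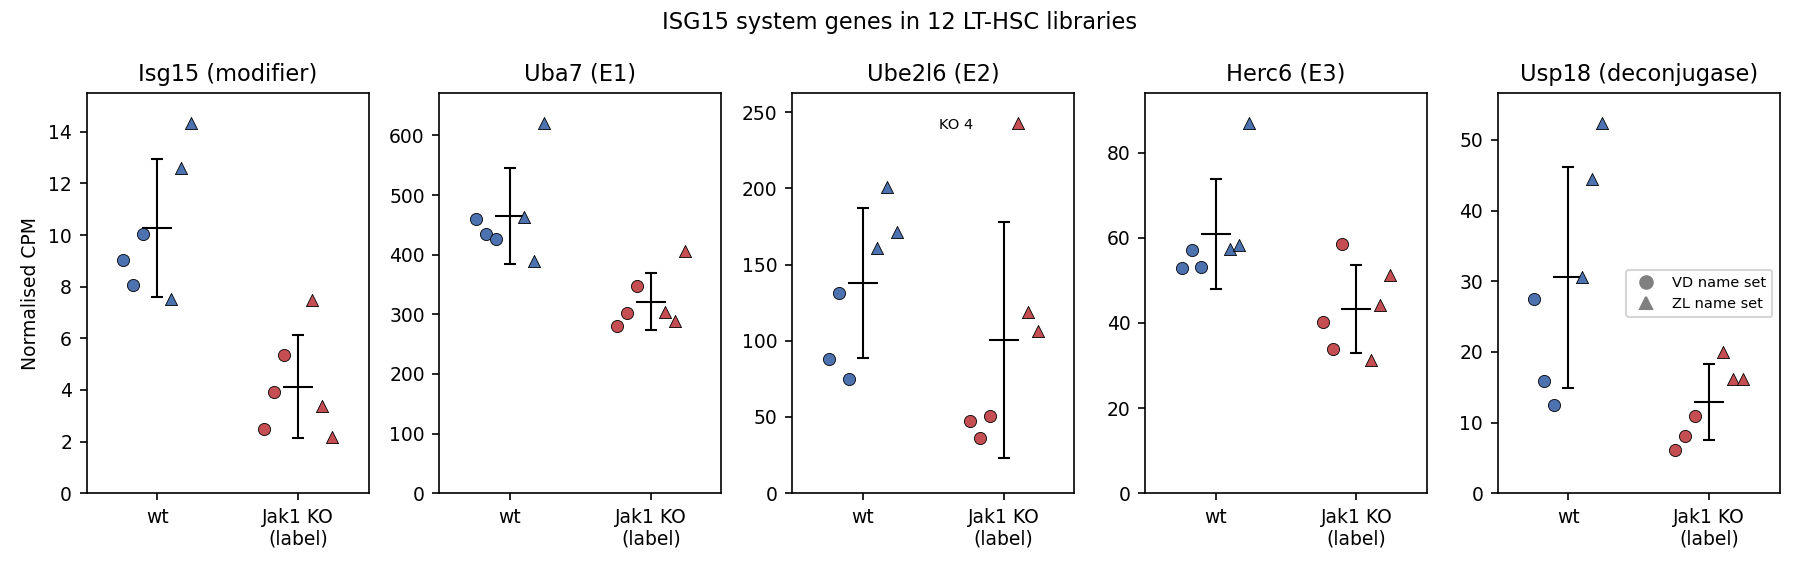
Normalised CPM of the 5 genes in each of the 12 libraries (points), with circles for the VD and triangles for the ZL name set, and the mean and SD of each genotype in black (n = 6 each). Isg15 is the gene whose groups do not overlap at all, though Jak1 KO 4 (7.47 CPM) lies only just under wt 4 (7.53 CPM). Jak1 KO 4 is the highest of all for Ube2l6.

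Isg15 (ENSMUSG00000035692.6, chromosome 4, 156199424 to 156200818, minus strand, GRCm38) encodes the modifier itself. Normalised CPM in the VD set were 9.02, 8.08 and 10.05 in wt 1 to 3, against 2.48, 3.90 and 5.34 in Jak1 KO 1 to 3. In the ZL set they were 7.53, 12.6 and 14.3 in wt 4 to 6, and 7.47, 3.36 and 2.19 in Jak1 KO 4 to 6. All 6 KO-labelled libraries lay below all 6 wt libraries, although Jak1 KO 4 was only just under wt 4, the lowest wt library. The share of all genes so separated was not computed. Separation within each name set, a looser arrangement, was found in 0.963% of all genes. The means of Isg15 were 10.3 ± 2.68 and 4.13 ± 1.99 CPM (SD, n = 6 each), from 31 to 387 reads per library. The log2 fold change was -1.32 (SE 0.31, 95% interval -1.99 to -0.65), and the edgeR adjusted p of 0.123 missed the threshold. Without Jak1 KO 4 it was -1.55 and passed (adjusted p = 0.0321). DESeq2 and limma-voom with sample quality weights called the gene over all 12 libraries (adjusted p = 0.0181 and 0.000909). Another gene model matched the Isg15 transcript over 482 bases at 95.2% identity, so reads could be split between them or lost.

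Uba7 (ENSMUSG00000032596.14, chromosome 9, 107975505 to 107984060) encodes the E1, which activates ISG15 and hands it to the E2. In the VD set its CPM were 459.5, 433.9 and 426.1 in wt 1 to 3, and 280.3, 301.4 and 346.8 in Jak1 KO 1 to 3. In the ZL set wt 4 to 6 stood at 462.3, 390.1 and 620.6, and Jak1 KO 4 to 6 at 303.4, 289.5 and 406.2. The VD groups were separate, and in ZL Jak1 KO 6 exceeded wt 5. The means were 465 ± 80.4 and 321 ± 47.5 CPM, a log2 fold change of -0.53 (SE 0.14, 95% interval -0.84 to -0.22) that was not called (edgeR adjusted p = 0.274). In the VD set alone the log2 fold change was -0.47 (SE 0.092) and was called (edgeR adjusted p = 0.0193). With DESeq2 over all libraries the adjusted p was 0.0526, and with limma-voom 0.00318.

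Ube2l6 (ENSMUSG00000027078.14, chromosome 2, 84798828 to 84810335) encodes the E2 that carries activated ISG15. Its CPM in the VD set were 88.3, 131.2 and 74.8 in wt 1 to 3, and 47.3, 36.5 and 50.6 in Jak1 KO 1 to 3. In the ZL set wt 4 to 6 held 161.0, 200.6 and 171.3 CPM, and Jak1 KO 4 to 6 held 242.8, 118.6 and 106.4. Jak1 KO 4 was the highest of all 12 libraries, whereas the other 5 KO-labelled libraries were lower than all wt libraries of their set. The means were 138 ± 49.1 and 100.4 ± 77.5 CPM, with a log2 fold change of -0.66 (SE 0.25, edgeR adjusted p = 0.818). Leaving out Jak1 KO 4 gave a log2 fold change of -0.88 with an SE of 0.17 (edgeR adjusted p = 0.0386). In VD alone, which does not hold that library, it was -1.09 (SE 0.19, 95% interval -1.48 to -0.69, edgeR adjusted p = 0.00689). With each library's exon-length trend entered as an offset, an alternative added after the data were seen, the log2 fold change over all 12 libraries was -0.79 (adjusted p = 0.0593). The part of the length trend and of the other cell types' markers in the value of Jak1 KO 4 was not tested beyond these fits. Stretches of 136 to 508 bases of the Ube2l6 transcript matched 5 other gene models at 95% identity or more, so some of its reads may be uncertain.

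Herc6 (ENSMUSG00000029798.11, chromosome 6, 57581000 to 57664632) encodes the main E3 ligase for ISG15 in mice, which lack the HERC5 that fills this role in humans. In the VD set its CPM were 52.9, 57.1 and 53.2 in wt 1 to 3, and 40.2, 33.8 and 58.5 in Jak1 KO 1 to 3. In ZL they were 57.4, 58.3 and 86.9 in wt 4 to 6, and 31.3, 44.3 and 51.2 in Jak1 KO 4 to 6. The ZL groups did not overlap, while in VD Jak1 KO 3 was above all 3 wt libraries. The means were 60.97 ± 12.9 and 43.2 ± 10.4 CPM, and the log2 fold change of -0.49 (SE 0.19, 95% interval -0.89 to -0.083) was not called (edgeR adjusted p = 0.825). No tool called Herc6 over the 12 libraries (adjusted p = 0.432 with DESeq2 and 0.201 with limma-voom). Without Jak1 KO 4, its lowest library, the log2 fold change was smaller, at -0.35 (SE 0.16, edgeR adjusted p = 0.812).

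Usp18 (ENSMUSG00000030107.10, chromosome 6, 121245906 to 121270917) encodes the protease that strips ISG15 from its targets and the brake on IFNAR2. In the VD set its CPM were 27.5, 15.9 and 12.4 in wt 1 to 3, and 6.08, 8.05 and 10.9 in Jak1 KO 1 to 3. In the ZL set they were 30.6, 44.5 and 52.4 in wt 4 to 6, and 19.99, 16.1 and 16.1 in Jak1 KO 4 to 6. Within each name set the KO-labelled libraries were all under the wt libraries, Jak1 KO 4 included, and across sets the 2 lowest wt libraries overlapped the ZL KO-labelled libraries. The means fell from 30.5 ± 15.6 to 12.9 ± 5.39 CPM, 2.34-fold (95% interval 1.67 to 3.29), with a log2 fold change of -1.23 (SE 0.23, edgeR adjusted p = 0.0283). DESeq2 and limma-voom called it too (adjusted p = 0.000192 and 0.00192). The edgeR call was held in 5 of the 12 fits that left out 1 library. It was lost without wt 1, wt 5 or wt 6, and without any of the KO-labelled libraries 1, 2, 5 and 6 (adjusted p up to 0.105), with log2 fold changes from -1.34 to -1.07 over all 12 fits.

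**Figure D2:**
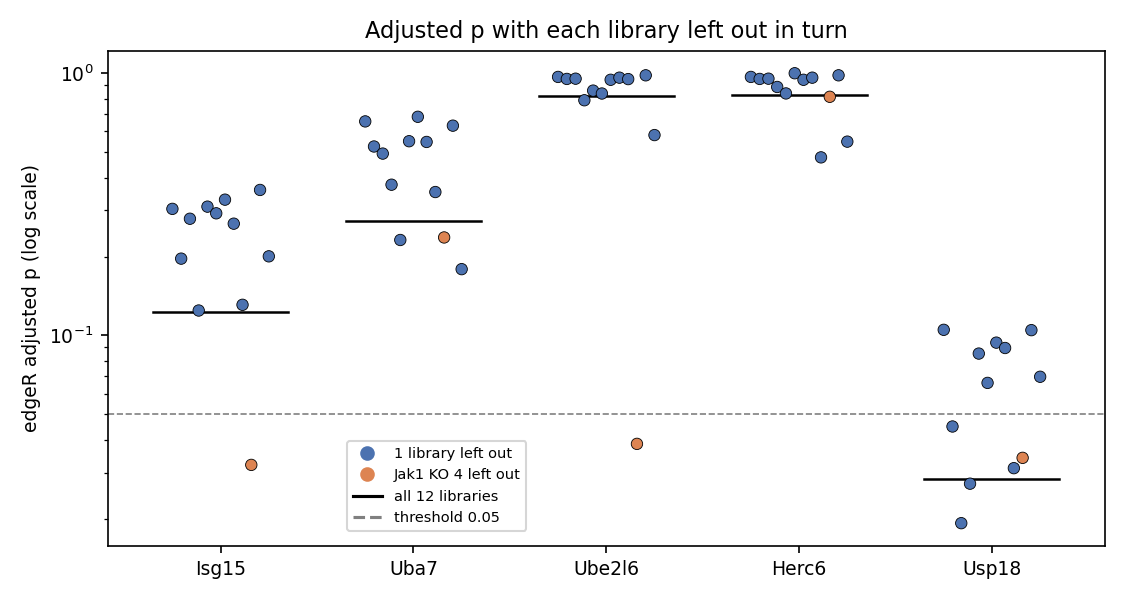
Adjusted p from edgeR (log scale) for each gene in the 12 fits that left out 1 library (points, orange for the fit without Jak1 KO 4) and with all 12 libraries (black lines), with the threshold of 0.05 dashed. Isg15 and Ube2l6 pass only in the fit without Jak1 KO 4, and Usp18 passes in 5 of the 12 fits.

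Genotypes were also exchanged within name sets in an exact two-sided permutation test of each gene's log2 CPM, over 400 relabelings with a smallest possible p of 0.005. The p was 0.005 for Isg15, 0.005 for Usp18, 0.01 for Uba7, 0.02 for Herc6 and 0.03 for Ube2l6, with 5 genes tested and no adjustment. Isg15 and Usp18 thus reached the smallest value the design allows. That value was set by the order of their libraries, and the order is not separate support. In these 2 of the 5 genes all KO-labelled libraries were under the wt libraries of the same set. Such an arrangement was found in 0.963% of all genes, and the 5 genes were chosen with earlier results of these data known.

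**Figure D3:**
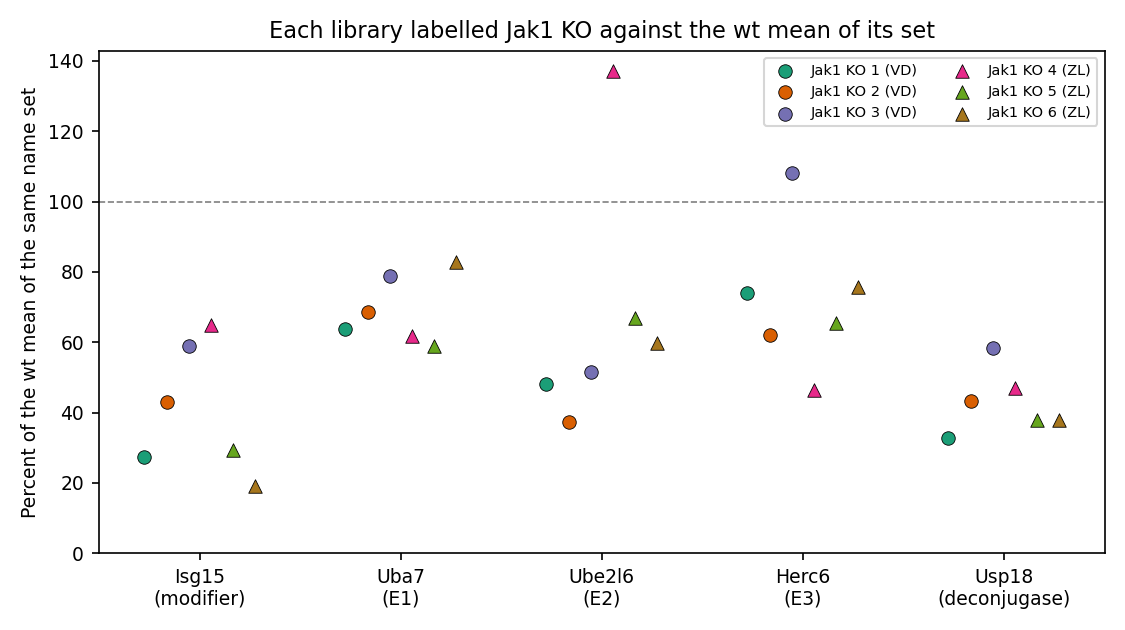
CPM of each KO-labelled library as a percentage of the wt mean of its own name set, for the 5 genes (circles VD, triangles ZL; the dashed line is the wt mean). Usp18 lies between 32.7% and 58.4% in all 6 libraries, while Ube2l6 reaches 137% in Jak1 KO 4.

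Set against the wt mean of its own name set, Usp18 stood at 32.7% to 58.4% in the 6 KO-labelled libraries. Isg15 spread more widely, from 19.1% in Jak1 KO 6 to 65.0% in Jak1 KO 4. Uba7 lay at 59.0% to 82.7% in every KO-labelled library. Ube2l6 ranged from 37.2% to 66.8% in 5 of them and stood at 137% in Jak1 KO 4, and Herc6 ranged from 46.4% in Jak1 KO 4 to 108% in Jak1 KO 3. In Jak1 KO 4 the genes with the longest transcripts, Herc6 (4767 bases) and Uba7 (3195 bases), stood at 46.4% and 61.8%, and those with the shortest, Isg15 (756 bases) and Ube2l6 (1560 bases), at 65.0% and 137%. Usp18 did not follow that order, with a transcript nearly as short as that of Ube2l6 (1771 bases) and a level of 47.1%. Uba7 in Jak1 KO 4 lay within its range in the other KO-labelled libraries (59.0% to 82.7%). Each percentage also holds the gene's own genotype difference, and the part of transcript length in these values was not tested.

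The name sets were compared to see whether the difference was of like size in each. In VD alone 2 of the 5 genes, Uba7 and Ube2l6, were called lower, against 0.76% of the 12903 genes tested. In ZL alone edgeR called 0 of the 5 and 0% of 13859 genes, with an unadjusted p under 0.05 for 2 of the 5 (Isg15 and Usp18) and for 226 genes of all. Isg15 had log2 fold changes of -1.17 in VD (SE 0.37) and -1.41 in ZL (SE 0.51), and Usp18 -1.12 (SE 0.31) and -1.28 (SE 0.31). Uba7 stood at -0.47 and -0.56, and Herc6 at -0.26 and -0.68. Ube2l6 differed most in value, at -1.09 in VD and -0.19 in ZL (95% interval -1.01 to 0.63). The interaction term, which tests the difference between sets, gave 0.94 for Ube2l6 (SE 0.44, 95% interval -0.016 to 1.90, edgeR adjusted p = 0.9752). It passed for 0 of the 5 genes, of which 0 had an unadjusted p under 0.05, and for 0% of all genes, of which 182 did. On simulated counts of 12876 genes the interaction test recovered 34.7% of genes given a log2 difference of -2 between sets. At a difference of -4 it recovered 86.2%, so smaller differences between sets could be missed.

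**Figure D4:**
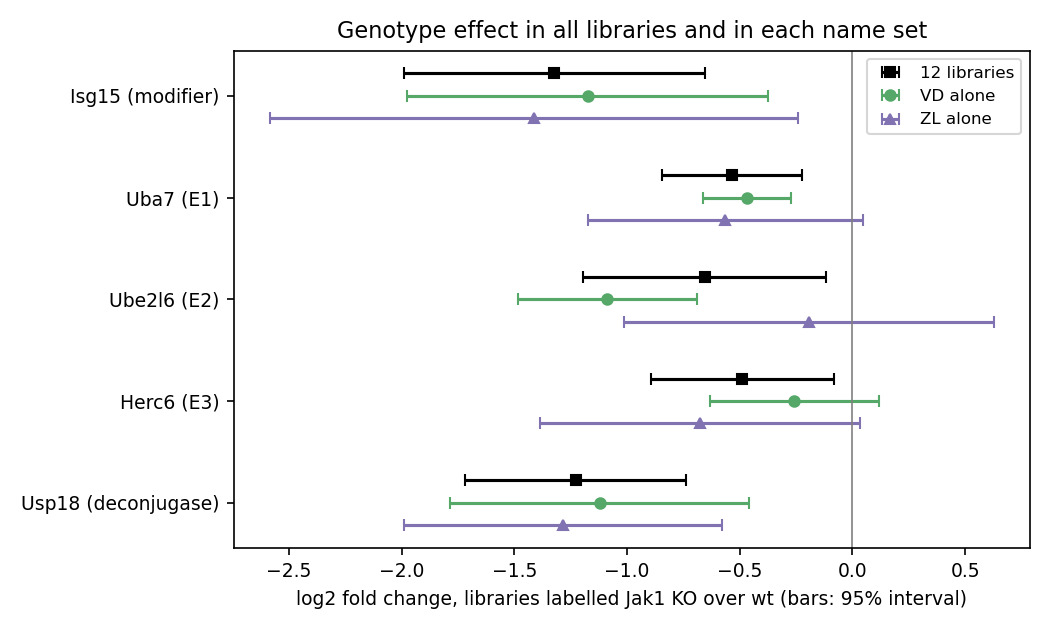
Log2 fold change of the KO-labelled libraries over wt with its 95% interval, for all 12 libraries (squares), VD alone (circles) and ZL alone (triangles). The 3 estimates of Isg15 and of Usp18 lie close together below 0, and those of Ube2l6 lie apart, at -1.09 in VD and -0.19 in ZL.

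Levels also differed between the name sets, whatever the genotype. Ube2l6 was higher in ZL than in VD by 1.33 on the log2 scale (SE 0.25, edgeR adjusted p = 0.000508) and Usp18 by 1.13 (SE 0.23, adjusted p = 0.000797). In wt libraries Usp18 averaged 18.6 ± 7.88 CPM in VD and 42.5 ± 11.1 in ZL (SD, n = 3 each), so that its wt libraries in VD were near the ZL KO-labelled libraries (17.4 ± 2.24). Isg15, Uba7 and Herc6 were not called between sets (log2 differences of 0.24, 0.13 and 0.13). So 2 of the 5 genes were called, against 60% of all genes, a share below that of the table as a whole. What the names of the sets stand for is not given, and this comparison was added after the values were seen. The libraries of the sets also differed in make-up. Reads assigned to Rn45s were 14.8% to 22.6% of each VD library, while every ZL library had a share between 0.511% and 0.95%. The part of this contrast in the set differences of the 5 genes was not tested, so they cannot be read as differences between the cells.

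Divided by transcript length, Uba7 and Ube2l6 were the most abundant of the 5 in wt, at 146 ± 25.2 and 88.4 ± 31.5 CPM per kilobase. Usp18 followed at 17.2 ± 8.83, Isg15 at 13.6 ± 3.54 and Herc6 at 12.8 ± 2.71 CPM per kilobase. The means of Isg15 and Herc6 differed by less than either SD, and the mean of Usp18 was above both by less than its own SD. In the KO-labelled libraries the levels were 100.6 ± 14.9 for Uba7, 64.3 ± 49.7 for Ube2l6, 9.06 ± 2.17 for Herc6, 7.27 ± 3.04 for Usp18 and 5.46 ± 2.63 for Isg15. Uba7 and Ube2l6 overlapped between wt libraries. Among the KO-labelled libraries they overlapped through Jak1 KO 4 alone, where Ube2l6 stood at 155.6 CPM per kilobase, while the other 5 reached at most 76.0 and the lowest Uba7 level was 87.7. In both genotypes, every library's level per kilobase of the E1 and of the E2 was above every library's level of the modifier.

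Whether some steps of the pathway differed more than others was tested on the log2 ratio of 2 genes within a library, by the same exact permutation, for all 10 pairs. The ratio of Isg15 to Uba7 was -5.51 ± 0.34 in wt and -6.36 ± 0.72 in the KO-labelled libraries (p = 0.035, exact permutation, adjusted p = 0.113 over the 10 pairs). That of Isg15 to Herc6 was -2.57 ± 0.26 and -3.45 ± 0.83 (exact permutation p = 0.045, adjusted 0.113). The ratio of Uba7 to Usp18 was higher by 0.65 in value, with 5 of 6 KO-labelled libraries above every wt library of their set (exact permutation p = 0.015, adjusted 0.113). Jak1 KO 4 was among these 5 libraries by a very narrow margin, at 3.916 against 3.915 in wt 4. The ratio of Herc6 to Usp18 was higher by 0.67 in value (exact permutation p = 0.035, adjusted 0.113). None of the 10 passed after adjustment, and these 4 had an unadjusted p under 0.05. Without Jak1 KO 4 these same 4 pairs passed, with adjusted p of 0.025 to 0.050, and without wt 3 Uba7 to Usp18 did (adjusted p = 0.050). Isg15 against Usp18 differed by -0.20 between genotypes (exact permutation p = 0.48) and Uba7 against Herc6 by -0.023 (p = 0.87, exact permutation), so no unequal change was detectable within either of these pairs.

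Libraries of 1 genotype and set still differed from each other. With each group of 3 centred on its own mean, Uba7 and Herc6 deviated together over the 12 libraries (Pearson 0.726, Spearman 0.594; Pearson 0.739 without Jak1 KO 4). Isg15 and Usp18 did so less closely (Pearson 0.555, Spearman 0.566; 0.590 without that library). The value for Isg15 and Ube2l6, 0.576, rested on Jak1 KO 4 and was 0.0433 without it. Uba7 and Herc6, the genes with the longest transcripts of the 5, were both highest in wt 6 (620.6 and 86.9 CPM). Their correlation without wt 6 was not computed. All genes of a library share its depth and its RNA quality, so these correlations are descriptions, and no test was made.

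For each gene the 3 genes of most similar pattern were listed, by the Pearson correlation of log2 CPM centred on each name set, over 12 libraries and 11788 other genes, so that the genotype difference itself counts towards the likeness. Isg15 was most like Zbp1, a nucleic acid sensor (0.929), Oas1a, an oligoadenylate synthetase (0.929), and Irf7, an interferon regulatory factor (0.928). Usp18 was most like Kcnj5, a potassium channel subunit (0.945), again Irf7 (0.936) and Igtp, an interferon-inducible GTPase (0.930). Uba7 was most like Nlrc5, the transactivator of MHC class I genes (0.968), Oas3 (0.965) and the water channel gene Aqp1 (0.956). Ube2l6 was closest to Il27, an interleukin subunit (0.927), the exonuclease gene Isg20 (0.914) and Xaf1 (0.912). Herc6 stood nearest to Hmgcs1, an enzyme of sterol synthesis (0.942), Parp9 (0.934) and the transcription factor gene Elf1 (0.922). Igtp and Irf7 were among the genes called lower, with log2 fold changes of -1.39 and -2.06, whereas Hmgcs1 and Elf1 were not called (-0.50 and -0.31).

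Upstream of the pathway, Irf9, the DNA-binding subunit of ISGF3, was called lower by edgeR (123 to 47.0 CPM, log2 fold change -1.35, SE 0.14, adjusted p = 0.00034). Stat2, another subunit, stood at -0.68 (SE 0.33, edgeR adjusted p = 0.945), and the receptor chains Ifnar1 and Ifnar2 at -0.14 and 0.12. Among reported substrates of ISG15, Mx1, a GTPase gene and itself an interferon target, was called lower by edgeR. Its levels were low, at 3.86 ± 2.58 CPM in wt and 0.270 ± 0.245 in the KO-labelled libraries (log2 fold change -3.80, edgeR adjusted p = 0.0498). Without Jak1 KO 4 Irf9 was called and Mx1 was not.

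Other enzymes that attach or remove ISG15 or bind it were measured as well. Of the 7 tested among 8 ligases and proteases with reported ISG15 activity, edgeR called 0 (0 at an unadjusted p under 0.05, 0 with DESeq2 and 0 with limma-voom). Trim25, a ubiquitin ligase that also transfers ISG15, came nearest at -0.39 (SE 0.21), followed by Arih1, an ariadne ligase, at -0.32 (SE 0.24). For extracellular ISG15 the receptor is LFA-1, of which Itgb2 stood at 75.0 and 50.9 CPM (log2 fold change -0.56, edgeR adjusted p = 0.202) and Itgal at 11.8 and 12.2 CPM. DESeq2 and limma-voom each called 1 of these 2 genes and edgeR 0, with 1 at an unadjusted p under 0.05.

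The relatives of each component in the ubiquitin system gave a comparison by enzyme class. EdgeR, DESeq2 and limma-voom called 0 of 8 other E1 enzymes, 0 of 31 other E2 enzymes, 0 of 4 other HERC ligases and 0 of 12 ubiquitin and ubiquitin-like modifiers, and 0 of these had an unadjusted p under 0.05. Uba2 and Uba1, the E1 subunits for SUMO and ubiquitin, were nearest in their class at -0.20 and -0.22, and Ube2z and Ube2f at -0.25 and -0.30 among the E2 enzymes. Ube2l3, the closest relative of Ube2l6, stood at 200 and 193 CPM (log2 fold change -0.093, SE 0.12). Herc4 and Herc3 were at -0.31 and -0.26, and Ufm1 and Ubb at -0.27 and 0.42. Of 31 other USP proteases the 3 tools called 0, and Usp40 (-0.50) and Usp24 (-0.49) had an unadjusted p under 0.05. As many as 28 of these 31 had a log2 fold change below 0, with a median of -0.22, but their summed level in Jak1 KO 4 was 1181 CPM, against 2199 or more in every wt library. Without that library 20 of 31 were below 0 and the median was -0.042. The median of the 5 ISG15 genes was -0.88 in that fit, in which Isg15, Ube2l6 and Usp18 were called. Over all genes 77 were called in that fit, against 58 with all 12 libraries. No test of these lists against each other was made.

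**Figure D5:**
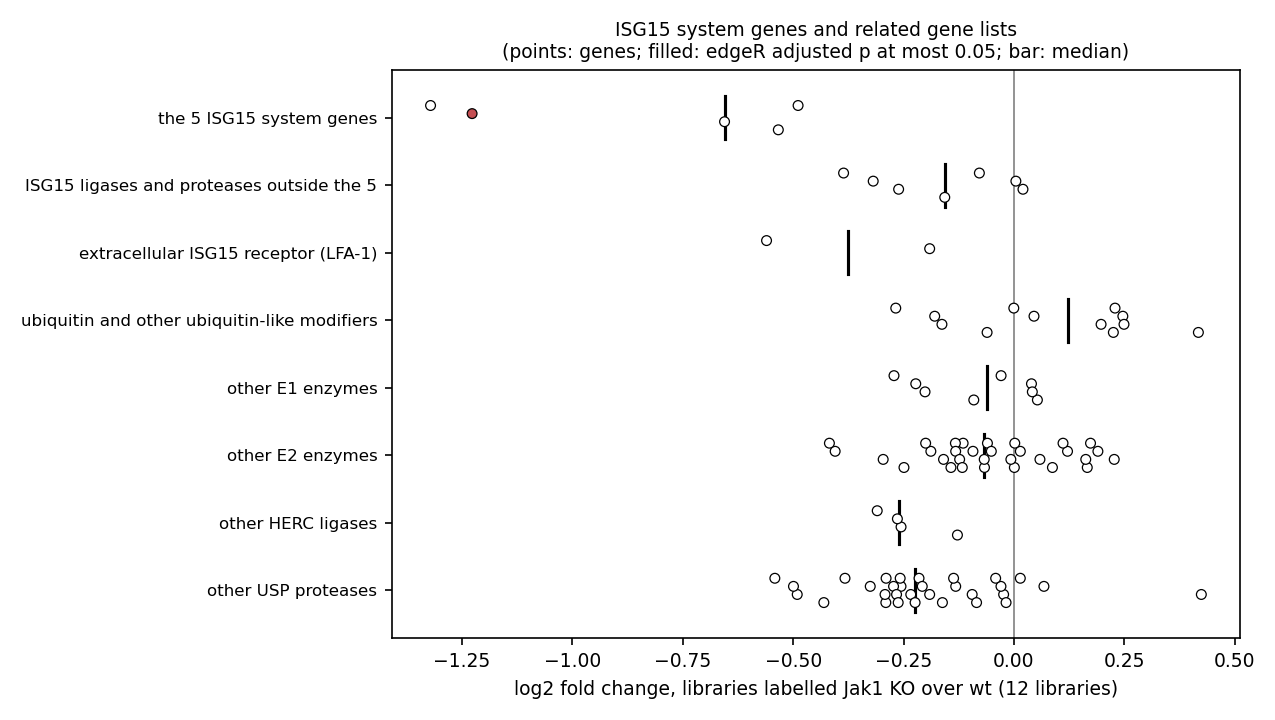
Log2 fold change over 12 libraries of the 5 ISG15 system genes and of the tested genes of 7 related lists (points, filled where edgeR's adjusted p is at most 0.05, with the list's median as a bar). The filled point is Usp18, and none of the genes of the 7 lists is filled. The lists of interferon receptors and ISGF3 and of reported ISG15 substrates are not plotted. They do hold genes that edgeR called lower, Irf9 and Mx1 among them.

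Markers of other cells that a stem cell gate could admit were compared between genotypes. Summed over 6 of the 7 listed monocyte and macrophage markers they were 232 to 515.6 CPM in wt and 250.3 to 467.3 CPM in the KO-labelled libraries other than Jak1 KO 4. Of neutrophil markers 6 of 7 were in the table, summing to 7.03 to 829.7 CPM in wt and 7.53 to 842.9 CPM in the KO-labelled libraries. Dendritic cell markers (7 of 7) summed to 156 to 268.8 and 166.3 to 294.9 CPM, B-cell markers (6 of 6) to 28.2 to 68.6 and 29.3 to 143.2, and T and NK cell markers (6 of 6, Gzma at 0) to 33.0 to 89.4 and 16.7 to 194.2. Erythroid markers (6 of 6, Hba-a1 at 0) summed to 45.6 to 93.4 and 29.9 to 81.6 CPM. The neutrophil sums followed the name set, at 261 CPM or more in every VD library and at most 13.1 in every ZL library. In these 6 lists edgeR called 0 genes, with 1 at an unadjusted p under 0.05 (Epor), DESeq2 called 0 and limma-voom 3. Of 13 stem and progenitor markers edgeR called 0, with 3 at an unadjusted p under 0.05, DESeq2 called 0 and limma-voom 2, and the median log2 fold change was 0.064. Among them Ly6a, the gene of the surface protein Sca-1 and a known interferon target, was at 43.9 to 142 CPM in wt, at 12.2 to 44.6 in 5 of the KO-labelled libraries and at 160 in Jak1 KO 4, and it was called lower by edgeR without that library. The summed megakaryocyte markers did differ with genotype, at 1007 to 1390 CPM in wt and 463.3 to 777.2 in the KO-labelled libraries. Of these 6 genes Itga2b, the integrin of platelets and their precursors, fell from 548 to 268 CPM (log2 fold change -1.08, edgeR adjusted p = 0.0247). All 6 had a log2 fold change below 0 and 3 an unadjusted p under 0.05, edgeR called 1, DESeq2 2 and limma-voom 3, and without Jak1 KO 4 edgeR called Itga2b and Pf4, a platelet chemokine. The part of the megakaryocyte list in the levels of the 5 genes was not tested.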

How the data were processed

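Poly-A-selected RNA of LT-HSCs was sequenced, and the authors deposited raw read counts per gene, which are not normalised. STAR 2.3.0e, featureCounts, Subread and the mm10 build are named in the submitters' processing notes. For the annotation and the strand setting nothing is stated in the labels, so reads of overlapping genes cannot be told apart. Exons of Uba7, Herc6 and Usp18 overlap other gene models in GENCODE M21. Columns were matched through the sample descriptions, groups through the titles.

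Counts were fitted in R 4.3.3 with edgeR 4.0.16 (filterByExpr on genotype, TMM, terms for name set and genotype, quasi-likelihood F test), with Benjamini-Hochberg adjustment over all genes tested and a threshold of 0.05. SEs are the log2 fold change over the square root of F. CPM use TMM-scaled library sizes, and log2 CPM a prior count of 2. Levels per kilobase use the GENCODE transcript matched to the RefSeq entry. Permutation tests exchanged genotypes within sets. No replicate pair of a group and set was as alike as sampling noise allows (chi-square of at least 13.8 per degree of freedom). Depth limits Isg15 most. On simulated counts of 12885 genes for the 12 libraries, edgeR recovered 34.1% of genes changed by -1 and 92.0% of those changed by -2 (log2), with 3.45% false calls.

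The 5 genes and the lists were chosen with earlier results of these data known. All 5 genes are given, and from each list the called genes or else the 2 of smallest p. Some genes of the lists are not reported here. Usp40 and Usp24 fall under that rule. Ube2l3, Stat2, Ifnar1, Ifnar2, Itgal, Ly6a, Pf4, Epor, Lyz2, Cd79b, Nkg7 and the Cd3 genes were named after their values were seen. The alternatives were DESeq2 size factors, upper quartile factors, no filter, 1 CPM in 6 libraries, DESeq2 1.42.0, limma-voom (limma 3.58.1) with quality weights, robust dispersion, no set term, a replicate block, the VD or ZL set by itself, omission of each library in turn, Rn45s and Lars2 left out, an adjusted p of 0.1, and for ratios a prior count of 0.5 and raw counts with a pseudocount of 1. Added later were an exon-length offset (12392 of 13184 genes had a length) and a fit without Jak1 KO 4, Jak1 KO 6 and wt 6.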

Additional observations from a re-analysis of the deposited data

Results flagged for a closer look

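A single wt library, wt 6, lay far above the other 5 of its group for a pair of the genes. Uba7 stood at 620.6 CPM there and at most at 462.3 in the others, a gap of 0.687 of the group's range. Herc6 stood at 86.91 CPM against at most 58.33, a gap of 0.841 of the range. Both gaps exceed Dixon's 95% critical value for 6 samples, which chance passes in about 1 of 20 groups. Without wt 6 the log2 fold changes were -0.44 for Uba7 (edgeR adjusted p = 0.550) and -0.37 for Herc6 (edgeR adjusted p = 0.999). In that library log2 CPM rose with exon length relative to its set (Spearman 0.383), and its quality weight was 0.215. Whether this accounts for the high values was not tested.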

How the results depend on the processing

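All 5 genes kept a log2 fold change below 0 under each of the 27 alternatives, and Herc6 was called under none of them. Isg15 was gained with DESeq2 (-1.25), limma-voom (-1.61) and the exon-length offset (-1.50), and ranged from -1.55 to -1.16 as each library was left out. Uba7 was gained with limma-voom (-0.52), in VD alone (-0.47) and without the 3 libraries Jak1 KO 4, Jak1 KO 6 and wt 6 (-0.48). Ube2l6 was gained in the same 3 fits (-0.88, -1.09 and -0.92) and ranged from -0.88 to -0.49 with libraries left out. Usp18 was lost without the set term (-1.24), in VD alone (-1.12), in ZL alone (-1.28) and without those 3 libraries (-1.14), and ranged from -1.34 to -1.07. With the replicate number as a replicate block it was -1.19 and was lost (adjusted p = 0.0758). Same-numbered samples did not deviate together throughout (correlations of 0.0429 to 0.668, above 0.1 in 4 of 6 pairs, and the samples numbered 2, 3 and 6 were closest to their own number). Since 2 pairs stayed under 0.1, the numbers were not taken to pair the samples. With the block 72 genes of all were called.

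The number of the 5 genes called was 2 with DESeq2, 4 with limma-voom, 0 without the set term, 0 with the block, 2 in VD, 0 in ZL, 2 with the length offset, 2 without the 3 libraries, and 0 to 3 with 1 library left out. All genes called numbered 58, against 126 with DESeq2, 220 with limma-voom, 14 without the set term, 149 in VD and 0 in ZL. They numbered 75 with the length offset, 96 without the 3 libraries and 39 to 77 with 1 library left out. Of the 10 ratios 0 to 4 passed with 1 library left out. Ratios near 0 changed sign in such fits: Uba7 to Ube2l6 ran from -0.026 to 0.38, Uba7 to Herc6 from -0.10 to 0.047 and Ube2l6 to Herc6 from -0.47 to 0.0029. The causes were not tested, except that the set and left-out fits hold fewer samples.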
